A study of Mus musculus with 4 samples.

Results

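Claudins are the membrane proteins that form the strands of tight junctions, and the 9 claudin genes Cldn1, Cldn2, Cldn3, Cldn4, Cldn5, Cldn6, Cldn7, Cldn10 and Cldn12 are described here with Tjp1, which encodes the scaffold protein ZO-1 that anchors claudins to actin. These 10 genes were chosen by symbol from the 52636 gene identifiers of the count files, and all 10 were found. RNA had been sequenced from mouse kidney cells isolated by fluorescence-activated sorting, under the labels control and Brg1-cKO, where cKO commonly stands for conditional knockout. Smarca4 encodes Brg1, an ATPase that powers SWI/SNF chromatin remodeling. Each group had 2 libraries, made from 3000 cells each. The sorting marker, the deleting allele, the age of the kidneys and what the control animals carried are not stated in the sources used here. The labels do not say whether 2 libraries of a group came from different animals, so p-values reflect the spread between libraries alone, and that spread may be technical.

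Each claudin gives a junction its own permeability. Some, such as claudin-2 and claudin-10, form paracellular pores for ions, and others, such as claudin-1, claudin-3, claudin-4, claudin-5 and claudin-7, mainly seal the space between cells. In the kidney each nephron segment carries its own set, so that the leaky proximal tubule and the tight collecting duct differ in the claudins they express. Claudin-5 is best known as the main claudin of endothelium and is also made by podocytes, the cells of the glomerular filter. Nephron progenitors are mesenchymal and acquire tight junctions when they turn into epithelium.

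The controls held 35411905 and 37999342 gene counts, and the Brg1-cKO libraries held 14645665 and 10922272. Of uniquely aligned reads, 49.5% and 57.2% in Brg1-cKO fell outside any counted feature, against 15.4% to 16.5% in control. Levels are given as CPM, the counts of a gene scaled to a fixed library total, after TMM normalization, which assumes that most genes do not differ. The targeted gene, Smarca4, was at 760 and 691 CPM in Brg1-cKO, with controls at 898 and 937 CPM (log2 fold change -0.34, SE 0.09, edgeR adjusted p = 0.167). These are counts over the whole gene, so exons that a deletion leaves in place would still count. Xist was at 836 and 1205 CPM in Brg1-cKO, with controls at 217 to 244 CPM, and the Y-linked Ddx3y was at 1.05 and 3.27 CPM against 76.0 and 78.8 CPM, so the sex of the cells and the genotype cannot be told apart.

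Both Brg1-cKO libraries had more Cldn5 than either control, while Cldn3, Cldn4, Cldn10 and Cldn1 were lower in both, 2 of them at 0 counts. Cldn12 and Tjp1 lay slightly higher in Brg1-cKO, and Cldn2, Cldn6 and Cldn7 overlapped between the groups. Of the 10 genes, 0 passed an edgeR quasi-likelihood adjusted p of 0.05, and the share called among all 18172 tested genes was 0%. An unadjusted p under 0.05 was found for 4 of the 10 and for 18.3% of all tested genes. These were Cldn5 on the higher side, where the share over all genes was 5.44%, and Cldn3, Cldn4 and Cldn10 on the lower side, where it was 12.9%. The groups did not overlap for 3 higher members (17.5% of all tested genes) and 4 lower ones (34.5%). The median log2 fold change of the 10 was -0.03, against -0.06 over all tested genes, and these medians moved with the setting. They were -1.05 against -0.31 with limma-voom, -1.16 against -0.31 with the replicate block, and -2.17 against -0.58 without Brg1-cKO replicate 2. With 2 libraries against 2, an exact two-sided permutation test cannot give a p below 0.333. DESeq2 called 4 of the 10, Cldn1, Cldn3, Cldn4 and Cldn5, and 11.1% of the genes it gave an adjusted p. Limma-voom called Cldn3 alone among them, and 1.8% of all genes. A replicate block called 0 of the 10 and 0.858% of all genes. Leaving out control replicate 1 or 2 also gave 0 of the 10, with 0.0818% and 0.0817% of all genes called. Leaving out Brg1-cKO replicate 1 gave 7 of the 10 with 55.5% of all genes called, and leaving out Brg1-cKO replicate 2 gave 9 with 60.6%.

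**Figure D1:**
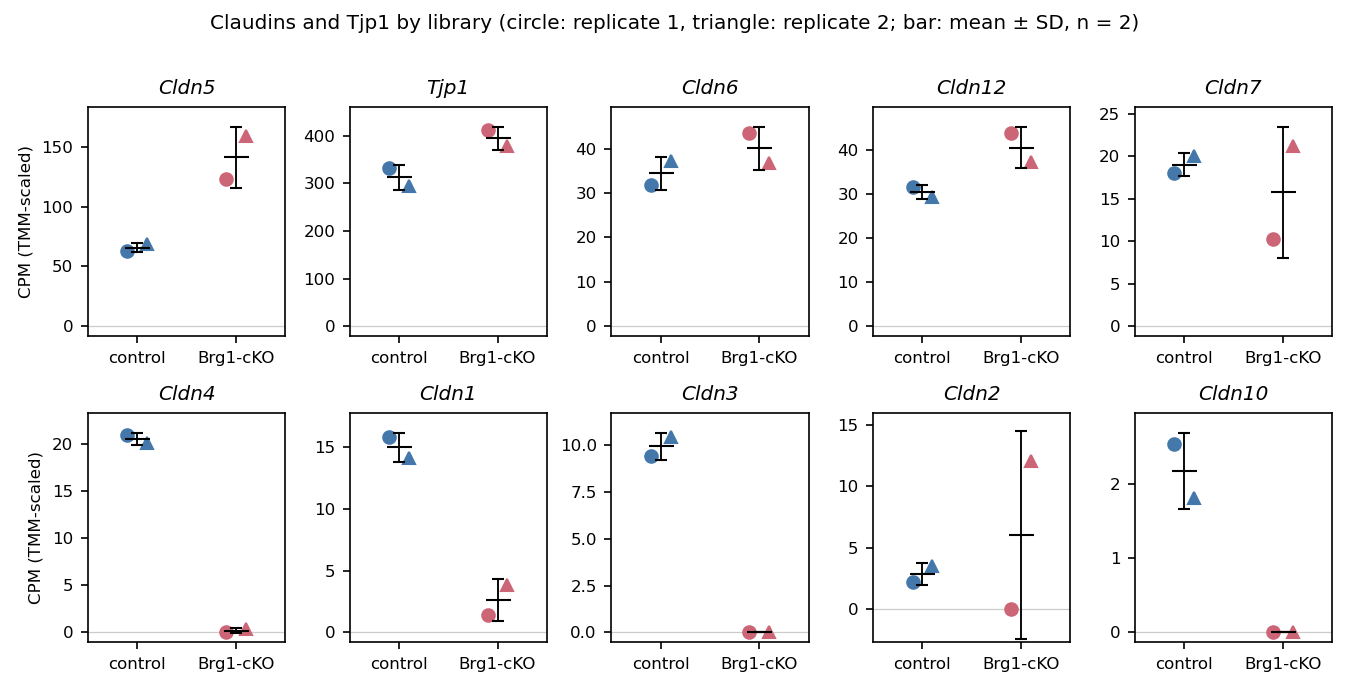
CPM of each gene in each library, on linear axes that differ between panels (blue, control; red, Brg1-cKO; circle, replicate 1; triangle, replicate 2; bar, mean ± SD over 2 libraries). Cldn5 sits at 123 and 159 CPM in Brg1-cKO above 62.9 and 68.4 CPM in control, whereas Cldn3 and Cldn10 lie at 0 in both Brg1-cKO libraries.

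Cldn5 (ENSMUSG00000041378) is a gene of a single exon at 18776847 to 18778262 of chromosome 16, plus strand (mm10, GENCODE M21), and its exon overlaps no other annotated gene. It had 2249 and 2639 counts in the control libraries, or 62.9 and 68.4 CPM. In the Brg1-cKO libraries it had 1765 and 1705 counts, or 123 and 159 CPM. The lower Brg1-cKO library was thus well above the higher control. The control mean was 65.6 ± 3.94 CPM and the Brg1-cKO mean 141.3 ± 25.4 CPM (SD, n = 2), a 2.15-fold ratio of means. The log2 fold change was 1.11 (SE 0.22), with an unadjusted model-based p of 0.00707 and an edgeR quasi-likelihood adjusted p of 0.166. It stayed between 1.06 and 1.16 under every alternative that used all 4 libraries. The adjusted p was 1.63e-04 with DESeq2 and 0.0935 with limma-voom.

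Markers of podocytes and of endothelium, 2 cell types known to express Cldn5, mostly went in opposite directions in the same libraries. Which of the sorted cells expressed Cldn5 was not measured. All 17 podocyte markers listed had a log2 fold change above 0, and 15 of them did not overlap between the groups, beside 17.5% of all tested genes on the higher side. Their summed level was 4671 and 4419 CPM in Brg1-cKO, with controls at 1636 and 1660 CPM, and none was at 0 in any library. Podxl, the podocyte sialomucin podocalyxin, was at 1755 and 1359 CPM against 279 and 282 CPM. Without Brg1-cKO replicate 2, 15 of the 17 were above 0. Of 15 endothelial markers, 14 had a log2 fold change below 0, 13 of them without overlap, against 34.5% of all tested genes on the lower side. The summed endothelial level was 464 and 271 CPM in Brg1-cKO, with controls at 888 and 891 CPM. Egfl7, a secreted endothelial protein, was at 1.61 and 2.52 CPM against 25.3 and 29.8 CPM, and Robo4, an endothelial guidance receptor, at 5.10 and 2.43 CPM against 32.5 and 33.8 CPM. Erg was at 0 counts in Brg1-cKO replicate 1 and Sox18 in replicate 2, and each of these transcription factors was detected in the other library.

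Beside these lists, the log2 fold change of Cldn5 was above that of all 15 endothelial markers, which ran from -3.74 for Egfl7 to 0.23 for Sox18. It was above 5 and below 12 of the 17 podocyte markers, which ran from 0.22 for Tcf21 to 3.38 for Col4a3. Among markers of other cell types, 10 of 11 stroma markers and 8 of 9 immune markers had a log2 fold change below 0. Nephron progenitor markers had 4 above and 4 below. The progenitor split was 6 above and 2 below with RLE scaling and DESeq2, and 3 above and 5 below with the replicate block. It was 5 above and 3 below without Brg1-cKO replicate 1, and 2 above and 6 below without replicate 2. The podocyte and endothelial lists were chosen with earlier results of these data known, so their directions are a description. The part that the makeup of the sorted cells has in the Cldn5 level was not tested. In bulk RNA, a change in the number of cells of a type and a change in RNA per cell cannot be told apart.

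**Figure D2:**
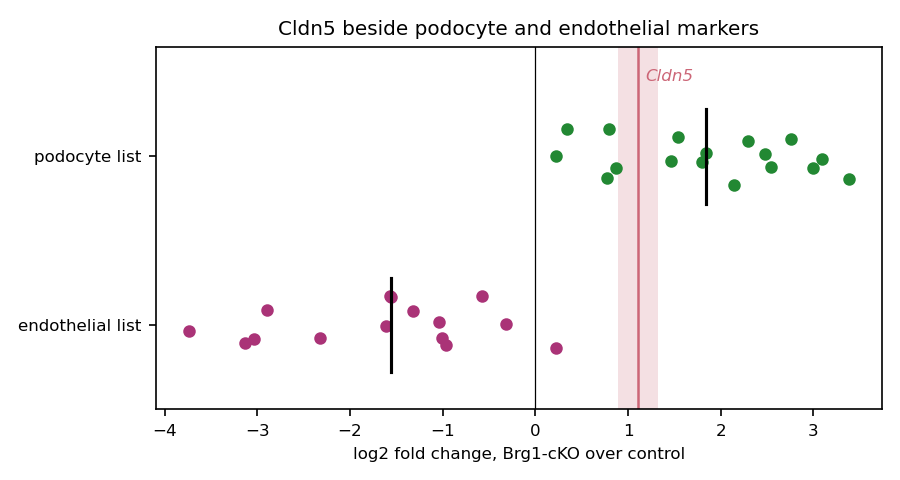
Log2 fold changes of Brg1-cKO over control for each podocyte marker (green) and endothelial marker (purple), 1 point per gene with vertical jitter only for display, black bars at the list medians, and Cldn5 as a red line with a band of 1 SE to each side. The Cldn5 line at 1.11 lies right of all endothelial points and inside the podocyte range, below the podocyte median of 1.85.

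By a rule based on likeness over the 4 libraries, the genes whose profile was nearest to Cldn5 were Tbcel, Uimc1 and Cyth1. The measure was the largest difference between mean-centred log2 CPM values in any library, among 9802 other genes with a mean of at least 10 CPM. It was 0.06 for Tbcel, 0.07 for Uimc1 and 0.07 for Cyth1. Tbcel was at 32.3 and 33.9 CPM in control and 59.0 and 78.4 CPM in Brg1-cKO. Vegfa, the endothelial growth factor secreted by podocytes, ranked 38 by the same measure and was the nearest of the podocyte markers. The nearest endothelial marker, Tie1, ranked 5791. With 4 libraries many genes share such a profile, and the ranks only describe these values.

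Cldn3 and Cldn4 encode sealing claudins of the ureteric bud derivatives and distal nephron. They lie 39279 bases apart on chromosome 5, Cldn4 from 134945119 to 134946934 on the minus strand and Cldn3 from 134986214 to 134987472 on the plus strand, each with a single exon. Cldn3 had 337 and 403 counts in control (9.42 and 10.5 CPM) and 0 counts in both Brg1-cKO libraries. At the control level those libraries would have held 142 and 106 counts. Expected counts and fold bounds, here and below, allow for counting error only. The Brg1-cKO libraries detected 16300 and 18038 genes, against 26486 and 27091 in control. Whether genes were lost in making the libraries was not tested. Taking 3 counts over the group as a floor, which is 0.120 CPM, Cldn3 was at least 83.0-fold lower in Brg1-cKO. Its adjusted p was 0.166 in edgeR's quasi-likelihood test, 1.70e-05 with DESeq2 and 0.0400 with limma-voom. Genes with 0 counts in both Brg1-cKO libraries made up 8.4% of all tested genes and 1.42% of the 4147 tested genes at 5 to 25 CPM in control, a range set with the Cldn3 level known. Cldn3 shares 40 exon bases with the antisense gene Wbscr25, and whether the counting used strand is not stated in the sources used here.

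Cldn4 had 750 and 773 counts in control (20.96 and 20.04 CPM) and 0 and 4 counts in Brg1-cKO (0 and 0.374 CPM), where the control level would have given 293 and 219. The pooled control level was 128-fold that of Brg1-cKO, with an exact 95% interval from 49.9 to 471 that covers counting error only. The log2 fold change was -6.81 (SE 1.85), with an edgeR quasi-likelihood adjusted p of 0.176 and 1.40e-05 with DESeq2. Both sealing claudins were thus near or at 0 in the same libraries in which Cldn5 was high.

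Upstream sequences of these 3 genes are shown because Cldn3 and Cldn4, which share a chromosomal neighbourhood, were lower together and Cldn5 was higher. Each is the 250 bases before the RefSeq start (GRCm38.p6), read 5′ to 3′ on the gene's own strand, for Cldn5 at chr16:18776597-18776846 (plus), for Cldn3 at chr5:134985964-134986213 (plus) and for Cldn4 at chr5:134946935-134947184 (minus).
Cldn5: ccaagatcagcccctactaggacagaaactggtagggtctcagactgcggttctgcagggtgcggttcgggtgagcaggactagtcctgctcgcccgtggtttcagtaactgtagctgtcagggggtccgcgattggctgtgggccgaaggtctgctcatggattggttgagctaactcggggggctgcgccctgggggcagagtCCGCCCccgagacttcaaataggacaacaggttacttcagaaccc
Cldn3: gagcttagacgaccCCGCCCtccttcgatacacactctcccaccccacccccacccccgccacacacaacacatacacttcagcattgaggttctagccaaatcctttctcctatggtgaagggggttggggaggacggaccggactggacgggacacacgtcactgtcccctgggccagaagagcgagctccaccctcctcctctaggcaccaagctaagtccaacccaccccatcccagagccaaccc
Cldn4: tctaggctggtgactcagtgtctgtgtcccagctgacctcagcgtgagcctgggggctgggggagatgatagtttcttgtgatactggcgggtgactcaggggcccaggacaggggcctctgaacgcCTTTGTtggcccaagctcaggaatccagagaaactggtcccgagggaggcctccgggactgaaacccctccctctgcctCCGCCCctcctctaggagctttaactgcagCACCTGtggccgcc
Capitals mark matches to 6 motifs searched on both strands: a TATA box (TATAAA), a GC box (GGGCGG), the E-box bound by Snail and Zeb factors (CAGGTG), an ETS core (CCGGAA), a Sox core (ACAAAG) and a Grainyhead core (CCGGTT). The ETS and Grainyhead cores share the letters CCGG and can overlap.

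Each of the 3 windows held 1 GC box, at 45 bases before the start in Cldn5, 236 in Cldn3 and 44 in Cldn4, as did 32.7% of 32851 promoter windows of this length with at least 1 match. Cldn4 also held 1 Snail/Zeb E-box 14 bases before the start (17.2% of windows) and 1 Sox core 123 bases before it (16.5%). None of the 3 held these letters for a TATA box (12.4%), an ETS core (3952 of the 32851 windows) or a Grainyhead core (5.62%). Their GC content was 59.6% for Cldn5, 60.8% for Cldn3 and 62.0% for Cldn4, against a median of 52.4% over all windows. These matches describe the letters of the windows and carry no measure of binding.

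Cldn7 and Cldn1 are further claudins of tight epithelia. Cldn7, which is found in the distal nephron and collecting duct, was at 18.03 and 19.97 CPM in control and at 10.3 and 21.2 CPM in Brg1-cKO. The control values lay between those of Brg1-cKO, and the log2 fold change was -0.27 (SE 0.60, edgeR adjusted p = 0.877). Cldn7 was therefore present in both Brg1-cKO libraries at levels where Cldn3 and Cldn4 were not detected or nearly so. Cldn1, which marks the parietal epithelium of Bowman's capsule, had 565 and 545 counts in control (15.8 and 14.1 CPM). In Brg1-cKO it had 20 and 41 counts (1.40 and 3.83 CPM). Both Brg1-cKO libraries were below both controls, with means of 2.61 ± 1.72 and 15.0 ± 1.17 CPM (SD, n = 2), and the control mean was 5.72-fold higher. The log2 fold change was -2.52 (SE 0.96), with an edgeR quasi-likelihood adjusted p of 0.294 and 0.0340 with DESeq2. Cldn7 lies on chromosome 11 from 69964779 to 69967885 and Cldn1 on chromosome 16 from 26356642 to 26371841.

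Markers of the ureteric bud and collecting duct, which carry these sealing claudins, were mostly lower in the same libraries. Of 13 tested markers 11 had a log2 fold change below 0, and 9 of these did not overlap between the groups, beside 34.5% of all tested genes on the lower side. Their summed level was 224 and 156 CPM in Brg1-cKO, with controls at 300 and 304 CPM. Calb1, Wnt7b and Wnt9b were among those at 0 counts in both Brg1-cKO libraries. Calb1, a calcium-binding protein of the ureteric bud, was at 54.6 and 51.1 CPM in control. Emx2, a transcription factor of the ureteric bud and nephric duct, was at 74.7 and 77.8 CPM in Brg1-cKO, with controls at 57.4 and 51.9 CPM. General epithelial markers were mixed, with 5 above and 6 below 0 and sums of 466 and 677 CPM in Brg1-cKO, with controls at 543 and 579 CPM. Cdh16, a kidney cadherin, was at 17.8 and 29.1 CPM in Brg1-cKO, with controls at 53.9 and 54.3 CPM, while Esrp2, an epithelial splicing factor, was at 20.6 and 35.5 CPM against 8.22 and 7.55 CPM. Their part in the Cldn1, Cldn3 and Cldn4 levels was not tested.

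Cldn2 and Cldn10 encode the pore-forming members. Cldn2, the cation and water pore of the proximal tubule, lies on the X chromosome from 139800828 to 139811386. It had 78 and 134 counts in control (2.18 and 3.47 CPM). In Brg1-cKO it had 0 counts in replicate 1 and 129 in replicate 2 (12.1 CPM). One Brg1-cKO library thus lay below both controls and the other above both. Its log2 fold change of 1.09 had an SE of 2.60 (edgeR adjusted p = 0.890), and limma-voom and the replicate block gave it the opposite sign, -1.66 and -1.96. A count of 0 in replicate 1 together with counts in replicate 2 was seen for 11.3% of all tested genes, and the reverse for 5.68%.

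Cldn10, whose alternative first exons give pore isoforms of the proximal tubule and the thick ascending limb, lies on chromosome 14 from 118787908 to 118875489. The counts are per gene and do not separate its isoforms. It had 91 and 70 counts in control (2.54 and 1.82 CPM) and 0 in both Brg1-cKO libraries, where the control level would have given 31.2 and 23.3 counts. That is at least 18.1-fold lower against the floor of 3 counts over the group. The edgeR quasi-likelihood adjusted p was 0.166, 0.0938 with DESeq2 and 0.0543 with limma-voom. Among the 3843 tested genes at 1 to 5 CPM in control, 21.7% had 0 counts in both Brg1-cKO libraries. At the level of Cldn10 such a pair of zeros was thus common. The 1.42% given above is for 5 to 25 CPM, which reaches well above the level of Cldn3, so it is not the share at that level.

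Of 9 tested proximal tubule markers, 5 had a log2 fold change above 0 and 4 below it, with a median of 0.60. The split was 3 above and 6 below with limma-voom (median -0.98), 2 above and 7 below with the replicate block (-0.76), and 4 above and 6 below both without Brg1-cKO replicate 1 (-0.58) and without replicate 2 (-1.06). Slc34a1, the phosphate transporter of the proximal tubule, was at 24.7 and 45.2 CPM in Brg1-cKO, with controls at 2.79 and 2.98 CPM. Lrp2, the endocytic receptor megalin, was at 48.6 and 40.3 CPM against 67.2 and 61.8 CPM. The proximal list summed to 119 and 141 CPM in Brg1-cKO, with controls at 111 and 109 CPM.

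Cldn6, Cldn12 and Tjp1 differed little between the groups beside the genes above. Cldn6, a claudin of embryonic epithelia, was at 31.8 and 37.1 CPM in control and 43.5 and 36.7 CPM in Brg1-cKO, so the groups overlapped (log2 fold change 0.22, SE 0.30, edgeR adjusted p = 0.788). Cldn12, an atypical claudin without the tail motif that binds ZO proteins, was at 31.6 and 29.4 CPM in control and 43.9 and 37.2 CPM in Brg1-cKO. Its log2 fold change was 0.41 (SE 0.30, edgeR adjusted p = 0.590). Tjp1 was at 332 and 294 CPM in control and 412 and 378 CPM in Brg1-cKO. For Tjp1 both Brg1-cKO libraries were above both controls, by a log2 fold change of 0.34 (SE 0.12), with an edgeR quasi-likelihood adjusted p of 0.275 and 0.0708 with DESeq2. Cldn6 lies on chromosome 17 from 23679249 to 23682446, Cldn12 on chromosome 5 from 5489537 to 5514958 and Tjp1 on chromosome 7 from 65296165 to 65527781.

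**Figure D3:**
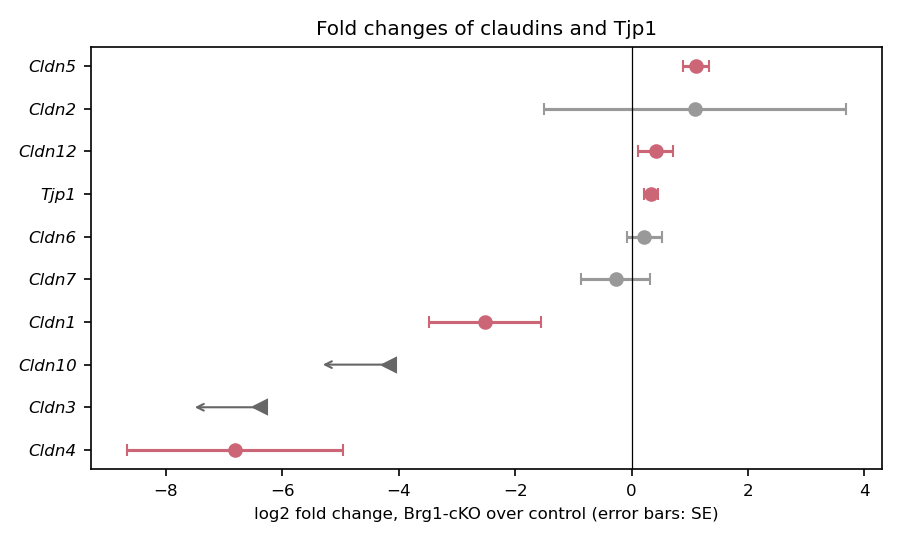
Log2 fold change of Brg1-cKO over control for each gene with its SE (points; red where the groups did not overlap, grey where they did). For Cldn3 and Cldn10, at 0 counts in Brg1-cKO, the left-pointing arrows start at the bounds of -6.37 and -4.17 set by a floor of 3 counts over the group, and the estimates run from 1.11 for Cldn5 down to -6.81 for Cldn4.

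To compare levels between genes, CPM were divided by the exon length of each gene in kilobases. On this scale Cldn5 was the highest of the 10 in control, at 46.4 ± 2.78 CPM per kb (SD, n = 2). Tjp1 followed at 40.1 ± 3.42 and Cldn6 at 20.0 ± 2.19 CPM per kb. Cldn4 was at 11.3 ± 0.357, Cldn7 at 9.75 ± 0.704, Cldn3 at 7.89 ± 0.579 and Cldn12 at 7.21 ± 0.373 CPM per kb, and the last pair differed by little more than their SDs. Cldn1 was at 3.09 ± 0.242 CPM per kb, while Cldn2 and Cldn10, at 0.850 ± 0.275 and 0.841 ± 0.199, could not be ordered.

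In Brg1-cKO Cldn5, Tjp1 and Cldn6 were again the highest 3, at 99.8 ± 17.9, 50.6 ± 3.08 and 23.3 ± 2.80 CPM per kb (SD, n = 2). Cldn12, at 9.59 ± 1.122, and Cldn7, at 8.08 ± 3.97 CPM per kb, overlapped. The length-scaled sum of the 9 claudins was 103.5 and 111 CPM per kb in the controls and 128 and 158 CPM per kb in Brg1-cKO. Cldn5 made up 67.9% and 71.1% of that sum in Brg1-cKO and 42.9% and 43.5% in control. Cldn3 made up none of it in Brg1-cKO, and in replicate 2 Cldn4 reached 0.130% and Cldn1 0.500%. In control replicate 1, Cldn3 made up 7.23%, Cldn4 11.2% and Cldn1 3.15%.

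**Figure D4:**
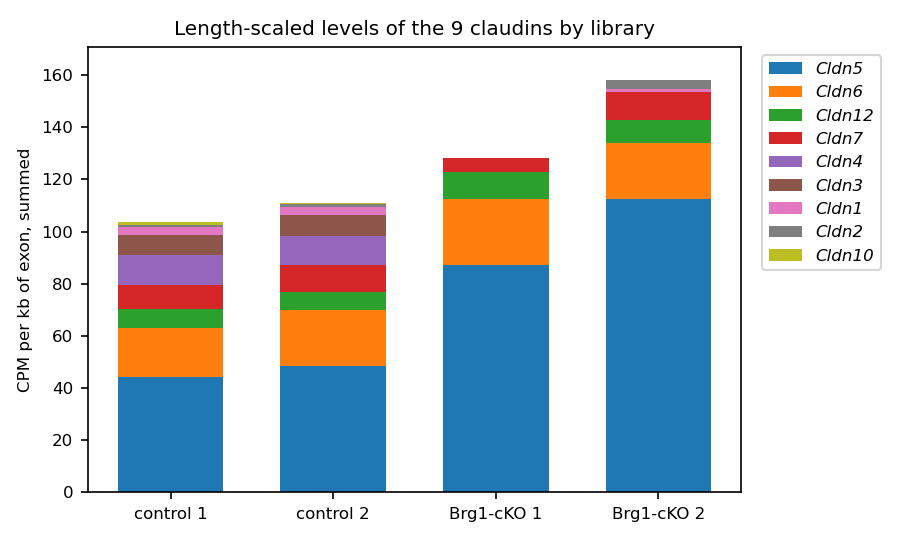
Stacked CPM per kb of exon for the 9 claudins in each library, with the axis starting at 0. The Cldn5 block is 44.4 and 48.3 CPM per kb in control and 87.1 and 112 CPM per kb in Brg1-cKO, and blocks of Cldn4 and Cldn3 can be seen only in control.

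Of 16 other listed claudin and claudin-domain genes, 15 were found by symbol and 7 were tested, with 2 above 0 and 5 below it. The median log2 fold change was -1.10, and 0 passed the adjusted threshold in edgeR's test. At an unadjusted p under 0.05 there were 3, Cldn8, Cldn23 and Cldnd1, all lower, beside 12.9% of all tested genes on that side. The split was 1 above and 6 below with limma-voom and the replicate block (medians -1.84 and -2.05), and 1 above and 7 below without Brg1-cKO replicate 2. The median of -7.01 in that last case rests on fitted values of genes at 0 counts and is no bound. Cldn8, the partner of claudin-4 in the collecting duct, was at 7.35 and 5.83 CPM in control. It had no count in either Brg1-cKO library, at least 54.7-fold lower. The adjusted p of Cldn8 was 0.166 in edgeR's quasi-likelihood test, 5.24e-04 with DESeq2 and 0.0400 with limma-voom. Cldnd1, a claudin-domain gene, was at 49.3 and 43.1 CPM in control and 20.1 and 23.0 CPM in Brg1-cKO (log2 fold change -1.10, SE 0.31, edgeR adjusted p = 0.181). Cldn11 was at 9.78 and 7.29 CPM in Brg1-cKO, below the controls at 11.8 and 16.1 CPM. Cldn9, which ends 137 bases from Cldn6 on the opposite strand, was higher in both Brg1-cKO libraries, at 16.7 and 29.9 CPM against 9.78 and 10.3 CPM (log2 fold change 1.21, SE 0.58, edgeR adjusted p = 0.397).

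Cldn16 and Cldn19, the paired claudins of the thick ascending limb, resembled Cldn2 in being high in Brg1-cKO replicate 2 alone, and are named here after their values were seen. Cldn16 was at 14.9 CPM in that library, 0.210 CPM in replicate 1 and 0.252 and 0.259 CPM in control, and it did not pass the filter on low counts. Cldn19 was at 15.9 CPM in replicate 2, at 0 counts in replicate 1 and at 4.53 and 2.90 CPM in control. Slc12a1, the sodium-potassium-chloride transporter of that segment, was at 42.2 CPM in replicate 1 and 86.9 CPM in replicate 2 of Brg1-cKO, and at 4.25 and 4.82 CPM in control. Pou3f3, a transcription factor of the developing loop of Henle, was at 138 and 142 CPM against 52.5 and 60.9 CPM. Irx1, a transcription factor of the intermediate nephron, was lower, at 3.91 and 6.45 CPM against 8.38 and 9.15 CPM. Of the 7 tested loop and distal markers, 5 were above 0 and 2 below, and 3 were above and 4 below with limma-voom, with the replicate block and without Brg1-cKO replicate 2. The list of loop and distal tubule markers summed to 215 and 290 CPM in Brg1-cKO, with controls at 93.8 and 105 CPM. Of its 10 genes, 6 were at 0 counts in Brg1-cKO replicate 1 and 2 in replicate 2. Among the 18172 tested genes, 3584 were at 0 in replicate 1 and 2560 in replicate 2. Umod, Kcnj1 and Slc12a3, which did not pass the filter, were among the 6 and held at most 10 counts in either control. The part of these markers in the Cldn16 and Cldn19 levels was not tested.

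**Figure D5:**
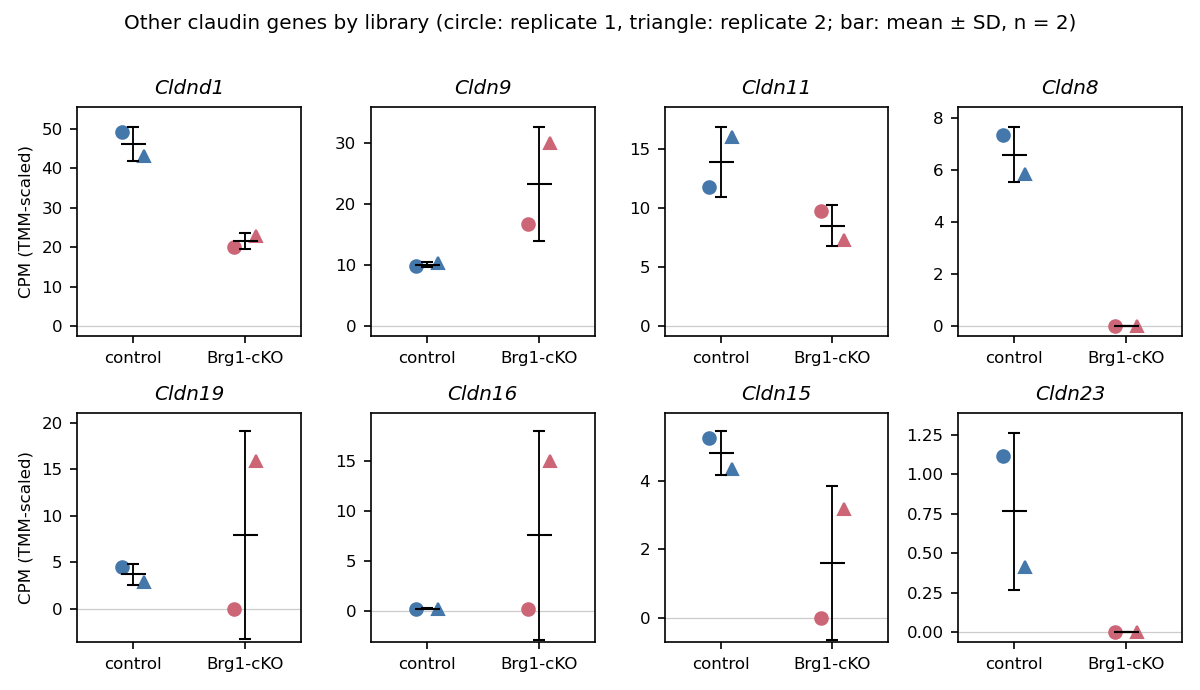
CPM by library of 8 claudin genes outside the 10 described (blue, control; red, Brg1-cKO; circle, replicate 1; triangle, replicate 2; bar, mean ± SD over 2 libraries, which can reach below 0 where the libraries differ widely). Cldn16 and Cldn19 are high only in the triangle of Brg1-cKO, at 14.9 and 15.9 CPM, and Cldn8 is at 0 in both Brg1-cKO libraries.

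Other membrane proteins of tight junctions were split, with 7 of 13 above 0 and 6 below. Their median log2 fold change was 0.28, and 0 passed the adjusted threshold in edgeR's test. Without Brg1-cKO replicate 2 the split was 4 above and 9 below, with a median of -1.08. Ildr2, of the family that marks tricellular contacts, was at 86.8 and 39.2 CPM in Brg1-cKO, with controls at 18.2 and 19.0 CPM. Ocln, which encodes occludin, was at 10.97 and 50.7 CPM against 10.4 and 8.51 CPM, so nearly all of its difference came from replicate 2. Jam3, a junctional adhesion molecule, was at 38.4 and 65.9 CPM against 31.7 and 32.8 CPM. Jam2, its relative, was at 0 counts in both Brg1-cKO libraries against 4.61 and 3.66 CPM in control. Clmp was at 9.99 and 74.8 CPM against 106 and 100.1 CPM, and F11r, which encodes JAM-A, at 29.6 and 58.8 CPM against 63.2 and 60.4 CPM.

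Among 15 other scaffold and plaque genes, the partners of Tjp1, 4 were above 0 and 11 below. Their median was -0.16, and 0 passed the adjusted threshold in edgeR's test. Patj, a scaffold of the Crumbs complex, was at 103 and 106 CPM in Brg1-cKO, with controls at 54.1 and 61.7 CPM (log2 fold change 0.85, SE 0.20). Cgnl1, which encodes paracingulin, was at 231 and 365 CPM against 181 and 193 CPM, while Cgn, which encodes cingulin, was at 1.33 and 5.32 CPM against 16.3 and 18.05 CPM. Magi1 was at 67.6 and 82.7 CPM against 57.7 and 60.7 CPM. Amotl2 and Mpdz were lower, at 446 and 377 CPM against 559 and 588 CPM and at 149 and 146 CPM against 197 and 207 CPM.

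Of 17 polarity genes, 8 were above 0 and 9 below, with a median of -0.14 and 0 past the adjusted threshold in edgeR's test. DESeq2 called 3 of them, beside 11.1% of all genes it gave an adjusted p. The replicate block called 1, beside 0.858% of all genes. Without control replicate 2 the median was 0.09, over 16 genes. Crb2, the Crumbs protein of podocytes, was at 97.1 and 113.7 CPM in Brg1-cKO, with controls at 27.3 and 30.3 CPM. Its log2 fold change was 1.87 (SE 0.23), at an edgeR adjusted p of 0.166. The adjusted p of Crb2 was 1.62e-12 with DESeq2, 0.0593 with limma-voom and 0.021 with the replicate block. Pard3b was at 63.4 and 72.1 CPM against 33.5 and 32.4 CPM, and Mpp5, which encodes the Crumbs partner Pals1, at 95.3 and 90.7 CPM against 60.5 and 58.6 CPM. Pard6g was at 35.2 and 17.9 CPM against 57.7 and 62.9 CPM. Lin7c, at 69.2 and 95.5 CPM against 119 and 103 CPM, was also lower in both libraries.

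Of 15 transcription factors known to act on claudin genes, 4 were above 0 and 11 below. Their median log2 fold change was -0.76, and 0 passed the adjusted threshold in edgeR's test. Grhl1, of the Grainyhead family that promotes epithelial junction genes, was at 42.5 and 35.7 CPM in Brg1-cKO, with controls at 10.5 and 9.41 CPM (log2 fold change 1.98, SE 0.38). Zeb2, a repressor of epithelial genes, was at 100.3 and 96.7 CPM against 195 and 196 CPM (log2 fold change -0.99, SE 0.14). Grhl1 and Zeb2 both had an edgeR quasi-likelihood adjusted p of 0.166. Grhl2, of the same family as Grhl1, went the other way and is named here after its values were seen. It was at 3.91 CPM and 0 counts in Brg1-cKO, with controls at 6.93 and 7.05 CPM (log2 fold change -1.83, SE 2.31). Foxo1 was at 32.4 and 22.3 CPM against 44.7 and 47.8 CPM.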

How the data were processed

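Per the labels' protocols, total RNA of 3000 sorted cells per sample gave strand-specific, randomly primed libraries sequenced as single-end reads of 75 bp. The deposited files hold whole-number counts of reads per gene, made by the authors. Alignment to mm10 and the tools TopHat and DESeq2 are named, per the submitters' processing notes. Which program counted reads, on which annotation and strand, was not given in the sources used here. Reads given to no gene (31.8% to 72.1% of each library) entered neither library sizes nor tests.

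Of 52636 identifiers, 52403 were matched to a symbol. Positions and exon lengths came from GENCODE M21 and upstream sequences from RefSeq on GRCm38.p6, in which all 10 genes were found. Groups came from the sample titles. edgeR 4.0.16 (R 4.3.3) was run on the whole table (TMM, filterByExpr with a minimum count of 10, robust quasi-likelihood F test, group as the only term, Benjamini-Hochberg adjustment over 18172 genes, threshold 0.05). Each SE was obtained from the fold change and its F statistic. A group at 0 was bounded with 3 counts over the group. The functions were tested first on simulated counts in which both groups had the spread of the controls. That setting does not show how they perform at the spread of the Brg1-cKO libraries. Alternatives were DESeq2 1.42.0, limma-voom (limma 3.58.1), RLE and total-count scaling, no filter, a filter of 10 CPM in 2 libraries, a replicate block, and each library left out.

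The genes, marker lists and pathway lists were chosen with earlier results of these data known. The rule for named genes takes all 10 genes, Smarca4, Xist and Ddx3y, and from each list the non-overlapping genes with the smallest p, a level of 1 CPM or more in the group where they are higher, and no more than 3 per direction (2 for marker lists). A few of the genes so chosen are not reported here. Intervals and floors cover the counting error of reads only and leave out the spread between libraries. The reads carry no molecular identifiers, so reads copied from the same molecule were not set apart.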

Additional observations from a re-analysis of the deposited data

How the results depend on the processing

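Over all tested genes the calls went from 0 to 2038 with DESeq2, 327 with limma-voom and 156 with the replicate block, and to between 16 and 13262 when 1 library was left out. Among the 10 genes they went from 0 to 4 with DESeq2, to 1 with limma-voom, and to between 0 and 9 when 1 library was left out. The high counts came without Brg1-cKO replicate 1 or 2, where the lone Brg1-cKO library was assumed to vary like the controls. The replicate block, RLE scaling, total counts, no filter and the filter of 10 CPM called 0 of the 10, and the last dropped Cldn2, Cldn3 and Cldn10. Of 107 values of the 10 genes under alternatives, 83 kept direction and side of the threshold, 20 passed it and 4 reversed. Cldn2 reversed with limma-voom (-1.66) and the replicate block (-1.96) and ran from -9.39 to 2.06 with 1 library left out, where the lowest value is that of a library at 0 and depends on the prior count. Cldn7 ran from -0.91 to 0.13. Cldn5 ran from 0.89 to 1.25 and Cldn1 from -3.44 to -1.99. Same-numbered libraries did not deviate together (r = -0.02 across genes), so the numbers were not taken as pairs. The depth of the libraries sets the floor of a count of 0, from 0.0789 to 0.275 CPM. The cause of these differences between tools was not tested.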
